A study of Mus musculus with 24 samples.

Results

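The genes described here are 10 genes of the response to oxidative and metal stress: the transcription factor genes Nfe2l2 (which encodes Nrf2) and Bach1, the enzyme and transporter genes Hmox1, Nqo1, Gclc, Gclm, Slc7a11 and Srxn1, and the metallothionein genes Mt1 and Mt2. They were chosen by name, 10 of the 53379 genes in the count table, and all 10 were among the 37598 genes that passed the filter on low counts. Expression was measured by mRNAseq of nuclei from the right hippocampus of adult male C57/BL6N mice, bought at 8 weeks of age and kept for 4 weeks before surgery, at 24 hours after an intracortical injection of kainic acid (KA), which elicits a status epilepticus, or of saline (sham, SH). KA mice without convulsive seizures had been excluded, and all mice of both groups had received medetomidine and ketamine, atipamezole and buprenorphine. Hippocampi of 8 mice per treatment were combined into 3 pools, 1 of 4 mice and 2 of 2 mice, and nuclei of each pool were sorted by the neuronal nuclear protein NeuN into NeuN+ nuclei, here neurons, and NeuN- nuclei, here glia. This gave 4 groups (KA neurons, SH neurons, KA glia, SH glia) of 3 libraries each, 12 in all.

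Nrf2 is held back by Keap1, which presents it for degradation, and is released when electrophiles or oxidants modify Keap1. Free Nrf2 pairs with small Maf proteins on antioxidant response elements (ARE) and drives genes for glutathione synthesis, quinone reduction, heme breakdown and the repair of thiol peroxidases, while Bach1 occupies the same elements as a repressor until heme binds it. Metallothioneins bind zinc and copper, and their genes answer to the metal-sensing factor MTF-1 on metal response elements (MRE), to glucocorticoids and to inflammatory signals. In brain, Nrf2 activity and both metallothioneins are known mainly from astrocytes, and heme oxygenase 1 from microglia and invading macrophages.

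The promoters are shown first because the 3 genes with the highest logFC in neurons below, Srxn1, Mt1 and Mt2, carry different sets of these letters. RefSeq promoters (GRCm38.p6), from 250 bases before to 50 bases after the transcription start, were given for 8 of the 10 genes, all but Hmox1 and Gclc. Both strands were searched for the ARE core TGACNNNGC, its form TGAGNNNGC (added after the sequences were seen), the AP-1 site TGAGTCA or TGACTCA, which can lie inside an ARE core, and the MRE cores TGCACNC and TGCGCNC. The 250 bases before the start follow, with every match to these letters in capitals, at chr2:152105274-152105523 for Srxn1, chr8:94178839-94179088 for Mt1 and chr8:94172368-94172617 for Mt2, all on the plus strand.
Srxn1: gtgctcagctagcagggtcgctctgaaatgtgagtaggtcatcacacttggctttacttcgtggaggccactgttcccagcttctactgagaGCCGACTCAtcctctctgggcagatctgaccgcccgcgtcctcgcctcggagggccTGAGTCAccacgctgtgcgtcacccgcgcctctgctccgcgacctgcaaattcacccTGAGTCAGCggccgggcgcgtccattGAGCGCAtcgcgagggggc
Mt1: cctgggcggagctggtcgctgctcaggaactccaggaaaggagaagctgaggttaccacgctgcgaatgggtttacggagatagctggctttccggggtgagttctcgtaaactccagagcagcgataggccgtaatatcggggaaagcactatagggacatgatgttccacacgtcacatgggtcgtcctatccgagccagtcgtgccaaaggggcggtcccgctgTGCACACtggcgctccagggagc
Mt2: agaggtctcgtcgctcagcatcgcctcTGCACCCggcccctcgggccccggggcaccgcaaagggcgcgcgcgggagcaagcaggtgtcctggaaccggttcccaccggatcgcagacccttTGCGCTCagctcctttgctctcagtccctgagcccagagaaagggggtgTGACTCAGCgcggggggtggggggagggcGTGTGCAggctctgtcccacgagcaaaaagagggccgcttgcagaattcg
Srxn1 held AP-1 sites starting 102 and 45 bases before the start, and the nearer one read on into the TGAGNNNGC form. A second match to that form lies 158 bases and an MRE core 19 bases before the start, both on the opposite strand. At least 2 AP-1 sites were found in 0.222% of the 32817 promoters of the same length, and at least 1 in 5.2%. Mt2 held 1 site that matched both the ARE core and the AP-1 letters, 79 bases before the start, and 4 MRE cores in the 300 bases, 1 of them after the start. At least 4 MRE cores were found in 0.518% of all promoters and at least 1 in 25.7%. The limits of 2 AP-1 sites and 4 MRE cores equal what Srxn1 and Mt2 held, and no share was taken for 3. Mt1 held 3 MRE cores, 2 of them after the start and so outside the printed bases, and no ARE core or AP-1 site in this window. All positions rest on the annotated start, and where transcription starts in these nuclei was not tested. Bases beyond the window were not searched. Such matches are letters only and say nothing of binding.

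The ARE core TGACNNNGC was found in 12.4% of all promoters and the form TGAGNNNGC in 17.7%. Among the other genes, 2 held the first form, shown here in 30-base windows read on the strand of the gene, at chr2:75704884-75704913 on the minus strand for Nfe2l2 and at chr3:122245413-122245442 on the plus strand for Gclm.
Nfe2l2: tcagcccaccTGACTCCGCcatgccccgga
Gclm: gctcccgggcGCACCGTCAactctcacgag
In Gclm the core lies on the opposite strand, and 3 MRE cores were found in the 300 bases, 1 of them overlapping it. Srxn1 also held this form, starting at base 29 after the start, Slc7a11 held only the form TGAGNNNGC, Bach1 held 1 MRE core, and Nqo1 held none of these letters in the window.

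Total counts ranged from 7769400 to 40364768 per library. Values are given as CPM, the count of a gene relative to the library total after scaling by TMM factors, listed for replicates 1, 2 and 3 in that order. Markers of neurons, astrocytes, microglia and oligodendrocytes followed the sort. Rbfox3, which encodes NeuN, was at 161 to 274 CPM in neurons and at 17.7 to 56.9 CPM in glia. In neurons and glia, the astrocyte gene Aldh1l1 was at 5.08 to 12.6 and 22.9 to 38.3 CPM. The microglia gene Cx3cr1 was at 2.65 to 10.8 and 102 to 388 CPM, and the oligodendrocyte gene Mbp at 58.0 to 295 and 1094 to 4976 CPM. The summed endothelial markers overlapped between SH neurons (16.9 to 42.8 CPM) and SH glia (15.4 to 56.3 CPM). In neurons, the summed CPM of all 8 marker lists overlapped between KA and SH, and none of the markers tested passed the threshold. In glia, the summed level was lower in KA for oligodendrocytes (7607 to 14209 against 14656 to 30812 CPM) and oligodendrocyte precursors (610 to 926 against 1583 to 2722 CPM), and higher for blood leukocytes (98.8 to 117 against 78.4 to 84.9 CPM), while the other 5 sums overlapped. For these 5 lists, median logFC (log2 of KA over SH) was -0.80 for astrocytes, -0.50 for microglia and -0.46 for neurons. It was -0.0097 for pericytes, 0.77 for endothelial cells and 0.14 over all genes tested. Cspg4 of the precursor list, Aldoc of the astrocyte list and P2ry12 and Siglech of the microglia list were downregulated in glia. The part of these shifts in the results in glia below was not tested, and in sorted bulk nuclei, fewer nuclei of a type and less RNA per nucleus cannot be told apart. Replicate 3 libraries held fewer genes with at least 1 count (36105 to 42086) than replicates 1 and 2 (40596 to 47666), and SH glia 1 and KA glia 2 were made from 0.05 ng of RNA with 15 cycles of amplification, the others from 1 ng with 10 cycles. All p values measure the spread between these pools.

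Of the 10 genes, 2 were upregulated in KA neurons (Srxn1 and Bach1) and 2 in KA glia (Srxn1 and Hmox1), and none was downregulated. The threshold was a false discovery rate (FDR) of 0.25 by edgeR's quasi-likelihood test with Benjamini-Hochberg adjustment over all genes tested, and it called 0.279% of all genes higher and 0.0612% lower in neurons, and 0.442% higher and 0.306% lower in glia. The KA libraries lay wholly above the SH libraries for 4 of the 10 genes in neurons (Bach1, Srxn1, Mt1, Mt2) and 3 in glia (Bach1, Hmox1, Srxn1), where this held for 5.27% and 3.61% of all genes. They lay wholly below for none of the genes in neurons and for Nqo1 in glia, with shares of 4.45% and 3% of all genes. Median logFC (log2 of KA over SH) was 0.78 in neurons and 0.31 in glia over the 10 genes, and 0.00048 and 0.14 over all genes.

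KA and SH libraries of the same replicate number deviated together, and a fit that blocks on this number in neurons and in glia is given where it changes a call. With the replicate block 4 genes were called higher in neurons (Bach1, Srxn1, Mt1, Mt2), against 1.94% of all genes higher and 1.11% lower, and in glia 4 were called higher (Hmox1, Srxn1, Mt1, Mt2) and Nqo1 lower, against 3.47% higher and 4.17% lower.

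**Figure D1:**
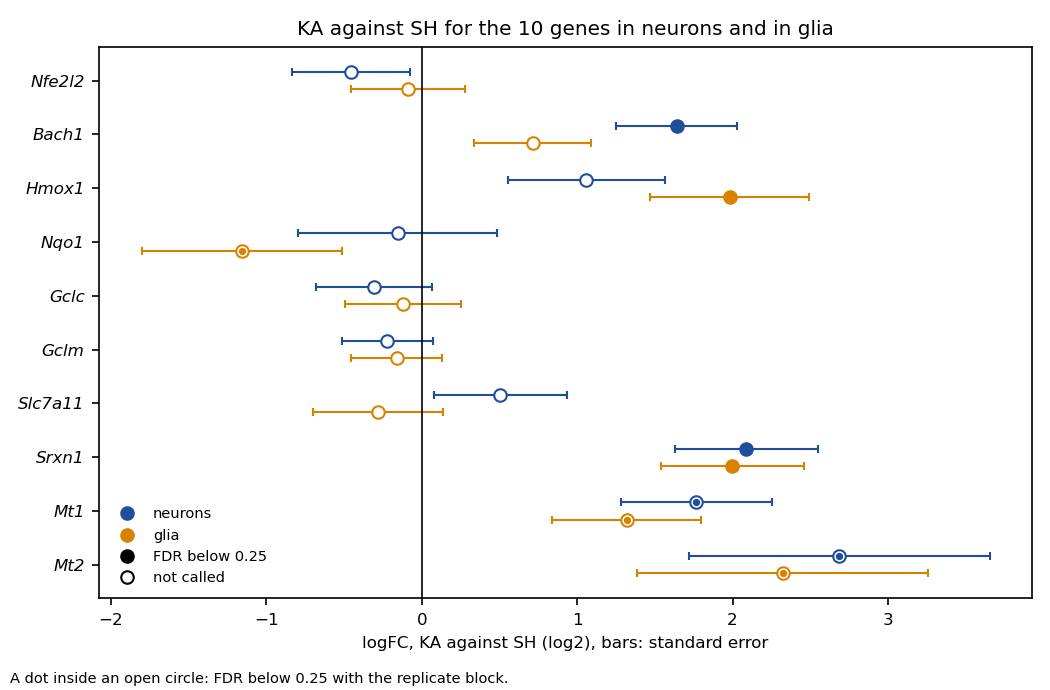
Log2 fold change of KA against SH for the 10 genes, in neurons (blue) and in glia (orange), with bars of 1 standard error; filled circles passed the FDR of 0.25, and a dot inside an open circle marks genes that passed it with the replicate block but not without it. Srxn1 was filled in both cell types, at 2.09 in neurons and 2.00 in glia, Bach1 only in neurons and Hmox1 only in glia.

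Srxn1 (ENSMUSG00000032802, chr2:152105516-152111376, plus strand) encodes sulfiredoxin, which repairs overoxidized peroxiredoxins. In neurons, Srxn1 was at 27.1, 27.1 and 51.9 CPM in SH and at 98.5, 145 and 207 CPM in KA. In glia, Srxn1 was at 11.6, 13.1 and 26.0 CPM in SH and at 37.2, 63.0 and 103 CPM in KA. The groups did not overlap in either cell type, and within each treatment replicate 3 was the highest. The logFC was 2.09 ± 0.46 (SE, n = 3 per group) in neurons, 4.25-fold, with an FDR of 0.153, and 2.00 ± 0.46 in glia, 3.997-fold, with an FDR of 0.128 (edgeR). Between libraries of the same replicate number KA exceeded SH by 3.64-, 5.36- and 3.998-fold in neurons and by 3.21-, 4.81- and 3.96-fold in glia, so the pairs differed less than the levels did. Leaving out 1 library moved the FDR past the threshold without KA neurons 2 (0.420), KA neurons 3 (0.945), SH neurons 1 (0.840), SH neurons 2 (0.556) or SH neurons 3 (0.256), with the logFC between 1.79 and 2.47. In glia the call was lost without KA glia 2 (0.591), KA glia 3 (0.299), SH glia 1 (0.335) or SH glia 2 (0.263), with the logFC between 1.56 and 2.45. Without the replicate 3 libraries the logFC was 2.17 in neurons (FDR 0.190) and 2.02 in glia (0.298). The level of Srxn1 in KA glia was 37.8 to 49.5% of that in KA neurons of the same pool, where the summed neuronal markers in glia were at 7.57 to 22.5% of their level in neurons.

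Bach1 (ENSMUSG00000025612, chr16:87698945-87733346, plus strand) encodes the heme-regulated repressor. In neurons, Bach1 was at 2.48, 5.35 and 5.14 CPM in SH and at 8.97, 16.1 and 15.4 CPM in KA. In glia, Bach1 was at 15.3, 18.9 and 15.9 CPM in SH and at 20.1, 24.2 and 37.8 CPM in KA. Every KA library was above every SH library in both cell types, by a wide margin in neurons and narrowly in glia, where KA glia 3 was the highest. The logFC was 1.64 ± 0.39 (SE, n = 3 per group) in neurons, 3.12-fold, with an FDR of 0.208, and 0.71 ± 0.38 in glia with an FDR of 1.00, where the 95% interval ran from -0.02 to 1.45 (edgeR). The call in neurons was lost without KA neurons 2 (FDR 0.886), KA neurons 3 (1.00), SH neurons 1 (0.981), SH neurons 2 (0.373) or SH neurons 3 (0.549), while the logFC stayed between 1.37 and 1.86, and without the replicate 3 libraries it was 1.68 (FDR 1.00). Bach1 in KA neurons was at 40.8 to 66.7% of its level in KA glia of the same pool, where the summed microglia markers were at 5.61 to 7.74%, astrocyte markers at 10.6 to 43.2%, endothelial markers at 48.8 to 66.2% and pericyte markers at 30.5 to 103%. Blood leukocyte markers were at 12.8 to 35.7%, oligodendrocyte markers at 1.30 to 5.52% and precursor markers at 2.55 to 9.95%. In SH pools, Bach1 in neurons was at 16.2 to 32.3% of its level in glia. About 8.32% of the 50-base words of Bach1 exons occur elsewhere in the genome, so part of its reads could be lost in counting unique reads.

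Nfe2l2 (ENSMUSG00000015839, chr2:75675513-75704641, minus strand), the gene of Nrf2 itself, was not called in either cell type. In glia, Nfe2l2 was at 37.5, 19.6 and 33.5 CPM in SH and at 31.9, 21.9 and 31.5 CPM in KA. In neurons, Nfe2l2 was at 4.12, 2.99 and 7.10 CPM in SH and at 3.25, 3.05 and 4.05 CPM in KA. The KA values lay within the SH range in glia and within it in neurons too, and replicate 2 was the lowest in all 4 groups. The logFC was -0.46 ± 0.38 (SE) in neurons, with a 95% interval from -1.20 to 0.29, and -0.09 ± 0.37 in glia, with an interval from -0.81 to 0.63.

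**Figure D2:**
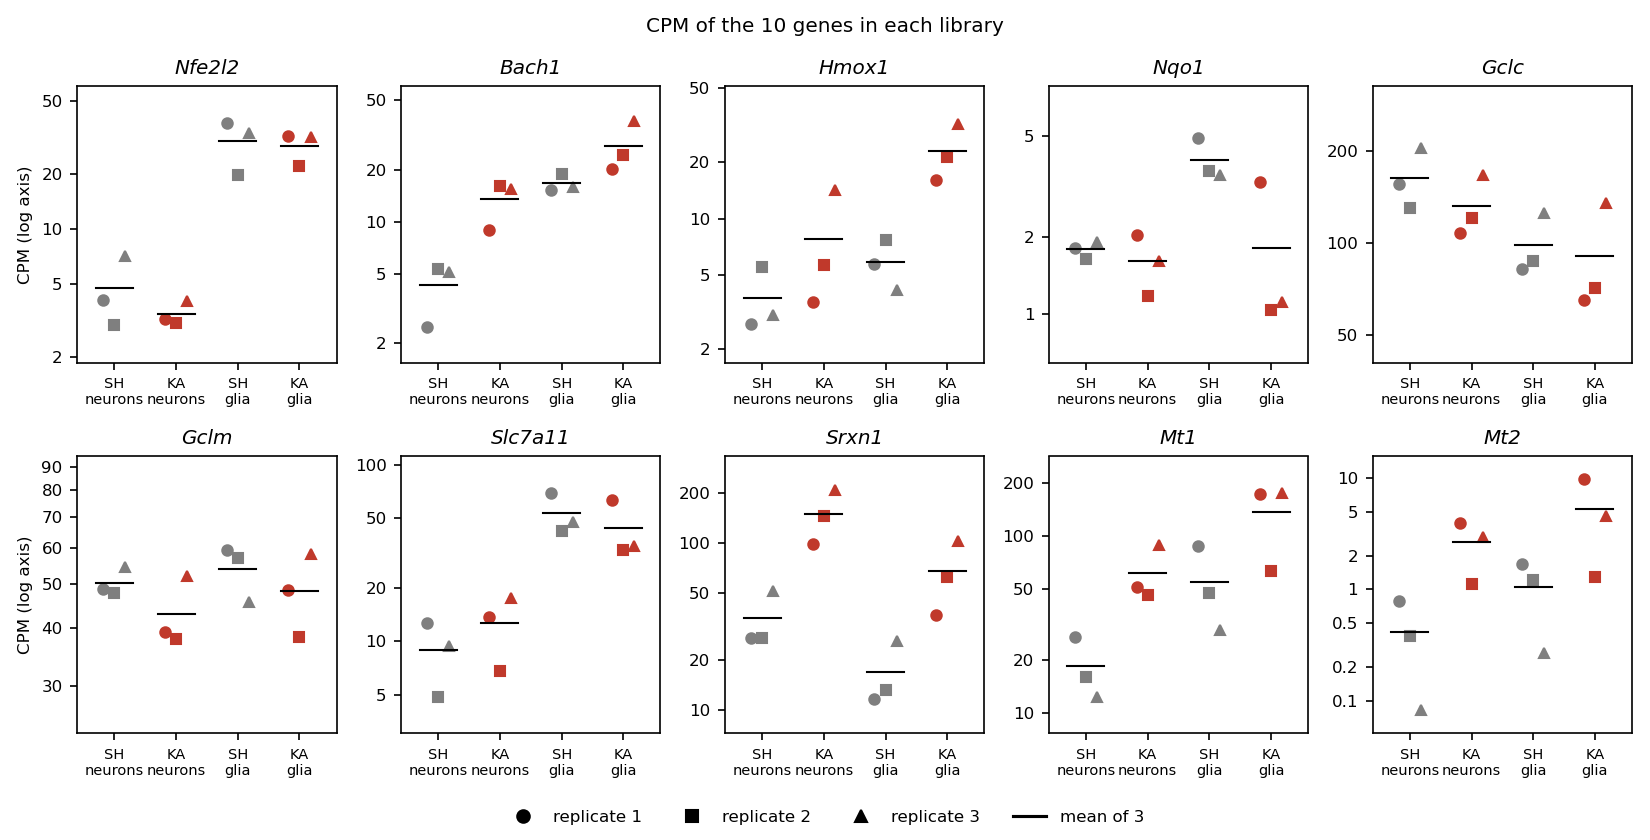
CPM on a log axis for each of the 10 genes in the 12 libraries, with SH in grey and KA in red, a marker shape for each replicate number and a line at the mean of 3 libraries. Srxn1 and Bach1 lie above SH in KA neurons without overlap, and Nfe2l2 and Slc7a11 lie higher in glia than in neurons whatever the treatment.

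Hmox1 (ENSMUSG00000005413, chr8:75093621-75100589, plus strand) encodes heme oxygenase 1, which opens the heme ring and frees iron and carbon monoxide, and is a target of both Nrf2 and Bach1. In glia, Hmox1 was at 5.71, 7.69 and 4.15 CPM in SH and at 15.99, 21.3 and 31.9 CPM in KA. In neurons, Hmox1 was at 2.72, 5.48 and 3.06 CPM in SH and at 3.59, 5.62 and 14.2 CPM in KA. In glia the lowest KA library was above the highest SH library, whereas in neurons KA neurons 1 lay inside the SH range, KA neurons 2 just above it and KA neurons 3 well above it. The logFC was 1.98 ± 0.51 (SE, n = 3 per group) in glia, 3.95-fold, with an FDR of 0.216, and 1.06 ± 0.50 in neurons with an FDR of 1.00 (edgeR). The call in glia was lost without KA glia 2 (0.497), KA glia 3 (0.378), SH glia 1 (0.378) or SH glia 3 (0.884), and without the replicate 3 libraries the logFC was 1.47 in glia (0.718) and 0.17 in neurons. The summed blood leukocyte markers moved the same way in glia (98.8 to 117 CPM in KA, 78.4 to 84.9 CPM in SH). Of the 6 tested, 5 had a logFC above 0 and none was called. The summed microglia markers overlapped (831 to 1672 and 1119 to 2540 CPM), and 1 of the 10 had a logFC above 0. The part of either cell type in the level of Hmox1 was not tested.

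Nqo1 (ENSMUSG00000003849, chr8:107388225-107403206, minus strand) encodes the quinone reductase that is often used as a readout of Nrf2. In glia, Nqo1 was at 4.90, 3.65 and 3.50 CPM in SH and at 3.30, 1.03 and 1.11 CPM in KA. In neurons, Nqo1 was at 1.82, 1.64 and 1.92 CPM in SH and at 2.05, 1.18 and 1.62 CPM in KA. The KA glia libraries were all below the SH glia libraries, with KA glia 1 close to them, and in neurons the groups overlapped. The logFC in glia was -1.16 ± 0.64 (SE, n = 3 per group) with an FDR of 1.00, and -1.34 with an FDR of 0.194 with the replicate block (edgeR). In neurons it was -0.16 ± 0.64, and the direction turned without KA neurons 2 (0.03). Oligodendrocyte and precursor sums were lower in KA glia as well, as given above, and their part in the level of Nqo1 was not tested.

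Gclc and Gclm encode the catalytic and the modifier subunit of glutamate-cysteine ligase, the first step of glutathione synthesis, and Slc7a11 encodes the cystine-glutamate exchanger xCT that brings in cystine for it. Gclc (ENSMUSG00000032350, chr9:77754535-77794485, plus strand) was at 156, 130 and 205 CPM in SH neurons and at 108, 121 and 168 CPM in KA neurons. In glia, Gclc was at 82.4, 87.7 and 126 CPM in SH and at 65.1, 71.6 and 135 CPM in KA. Replicate 3 was the highest library of each group, and the groups overlapped in both cell types. Gclm (ENSMUSG00000028124, chr3:122245557-122270732, plus strand) was at 48.7, 47.7 and 54.4 CPM in SH neurons and at 39.4, 37.9 and 51.9 CPM in KA neurons. In glia, Gclm was at 59.2, 57.0 and 45.7 CPM in SH and at 48.4, 38.4 and 58.1 CPM in KA. The logFC in neurons and glia was -0.31 and -0.12 for Gclc and -0.22 and -0.16 for Gclm. None of the 4 passed the threshold, and the widest 95% interval of a logFC ran from -1.04 to 0.42 (Gclc in neurons).

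Slc7a11 (ENSMUSG00000027737, chr3:49892526-50443614, minus strand) was at 69.7, 42.4 and 47.2 CPM in SH glia and at 63.4, 32.9 and 34.9 CPM in KA glia. In neurons, Slc7a11 was at 12.7, 4.85 and 9.47 CPM in SH and at 13.8, 6.80 and 17.7 CPM in KA. KA was below SH in each of the 3 replicate numbers in glia and above SH in each in neurons, but the libraries overlapped. The logFC was -0.28 ± 0.42 (SE) in glia and 0.51 ± 0.43 in neurons, neither past the threshold, and the difference of these effects was 0.79 ± 0.60 with an FDR of 1.00 (edgeR).

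Mt1 (ENSMUSG00000031765, chr8:94179082-94180327) and Mt2 (ENSMUSG00000031762, chr8:94172664-94173568) lie side by side on the plus strand. In neurons, Mt1 was at 26.8, 15.9 and 12.3 CPM in SH and at 51.8, 46.3 and 88.6 CPM in KA. In glia, Mt1 was at 88.3, 47.8 and 29.6 CPM in SH and at 173, 63.6 and 177 CPM in KA. The groups were apart in neurons, but in glia KA glia 2 lay below SH glia 1. The logFC of Mt1 was 1.77 ± 0.49 (SE, n = 3 per group) in neurons with an FDR of 0.402, and 0.0187 with the replicate block (edgeR). It also passed in a fit of the neurons alone (0.0646), with at least 10 counts in every library (0.154) and with the DESeq2 Wald test (0.0411). In glia it was 1.32 ± 0.48 with an FDR of 0.673, and 0.0732 with the replicate block, 0.222 with at least 10 counts in every library and 0.156 with the DESeq2 Wald test. Without 1 library, none of 6 fits in either cell type called Mt1 (lowest FDR 0.483 in neurons, 0.269 in glia, edgeR). Without the replicate 3 libraries its logFC was 1.20 in neurons and 0.79 in glia. KA exceeded SH in all 3 replicate numbers in both cell types, by 1.93- to 7.21-fold in neurons and by 1.33- to 5.97-fold in glia. Mt1 in KA neurons was at 29.9 to 72.8% of its level in KA glia of the same pool, beside 10.6 to 43.2% for the summed astrocyte markers, 48.8 to 66.2% for endothelial and 30.5 to 103% for pericyte markers. Microglia markers were at 5.61 to 7.74%, blood leukocyte markers at 12.8 to 35.7%, oligodendrocyte markers at 1.30 to 5.52% and precursor markers at 2.55 to 9.95%. In SH pools, Mt1 in neurons was at 30.3 to 41.5% of its level in glia.

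Mt2 rests on few reads, with 2 to 13 reads in SH neurons, 32 to 73 in KA neurons, 9 to 25 in SH glia and 34 to 113 in KA glia. In neurons, Mt2 was at 0.79, 0.38 and 0.08 CPM in SH and at 3.93, 1.11 and 2.96 CPM in KA. In glia, Mt2 was at 1.69, 1.22 and 0.27 CPM in SH and at 9.82, 1.30 and 4.61 CPM in KA. As for Mt1, KA neurons were apart from SH neurons, and KA glia 2 was the library that overlapped with SH glia. The logFC was 2.69 ± 0.97 (SE) in neurons with an FDR of 0.946, 0.0858 with the replicate block and 0.154 with the DESeq2 Wald test, and 2.32 ± 0.94 in glia with an FDR of 0.817, and 0.135 with the replicate block (edgeR). Without 1 library, none of 6 fits in either cell type called Mt2. Without the replicate 3 libraries its logFC was 2.09 in neurons and 1.91 in glia. Of the exon bases of Mt2, 73.5% are shared with Gm45774 on the opposite strand, and reads overlapping both genes were not counted for either. Gm45774 itself was at 1.14 to 1.59 CPM in SH neurons and 4.37 to 6.32 CPM in KA neurons, and at 0.32 to 1.27 CPM in SH glia and 2.49 to 6.87 CPM in KA glia. Without strand, reads from Mt2 and from Gm45774 cannot be told apart, and the level of Mt2 is uncertain.

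**Figure D3:**
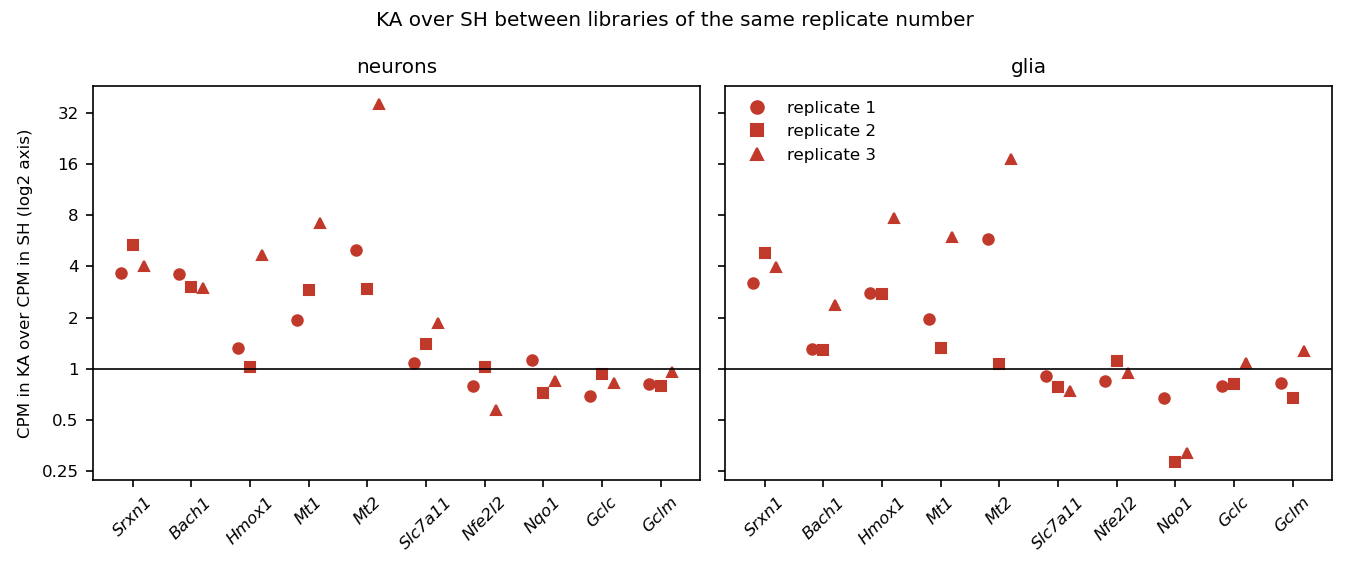
CPM in KA over CPM in SH between libraries of the same replicate number, on a log2 axis with a line at equality, for the 10 genes in neurons and in glia. All 3 points lie above the line in both panels for Srxn1, Bach1, Hmox1, Mt1 and Mt2, and the triangle of Mt2 in neurons rests on 2 reads in SH. The share of all genes with all 3 points above the line was not taken, and these pools are not described as paired.

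Over all 10 genes the difference between the KA effects in neurons and in glia did not pass the FDR of 0.25, and the share of all genes called was 0%, with 286 genes toward neurons and 216 toward glia at an unadjusted p below 0.05 (edgeR). The difference was 0.09 ± 0.63 (SE) for Srxn1, with a 95% interval from -1.14 to 1.32. It was 0.93 ± 0.53 for Bach1, with an interval from -0.12 to 1.97, and -0.92 ± 0.71 for Hmox1, with an interval from -2.31 to 0.46. Bach1 called in neurons and Hmox1 called in glia are therefore not shown to differ between the cell types. With a block by pool, 177 genes were called, none of them among the 10.

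Without KA, in SH mice that had undergone surgery with saline, the genes were unevenly spread over the sorted fractions. In SH, 4 of the 10 were lower in neurons than in glia at an FDR of 0.05, none was higher, and 4.67% of all genes were called lower and 6.05% higher. Over all genes this was 2276 higher and 1757 lower, and with DESeq2 size factors, which shift the median logFC of this comparison by -0.15, 1624 higher and 1945 lower, with the 4 genes still called. The logFC of neurons against glia was -2.67 ± 0.39 (SE) for Nfe2l2 (FDR 0.000393), -2.56 ± 0.45 for Slc7a11 (0.00134), -1.94 ± 0.39 for Bach1 (0.00352) and -1.59 ± 0.48 for Mt1 (0.0436, edgeR). The call for Mt1 was lost in 4 of 6 fits without 1 library, those without SH glia 1, SH glia 2, SH neurons 2 or SH neurons 3, with an FDR of up to 0.202. With a block by pool 2 genes were called higher in neurons, Srxn1 (logFC 1.06 without the block, FDR 0.180, and 0.000678 with it) and Gclc (0.73, FDR 0.308, and 0.0162 with it). The same fit called 5322 of all 37598 genes higher and 2841 lower.

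Per kilobase of exon, Gclc led in SH neurons with 43.4 ± 10.0 CPM per kb (SD, n = 3), ahead of Mt1 (14.7 ± 6.0), Srxn1 (12.5 ± 5.1) and Gclm (7.99 ± 0.57). Gclc was apart from Mt1, and Srxn1 from Gclm, while Mt1 and Srxn1 overlapped. Hmox1 (2.14), Nfe2l2 (1.25), Nqo1 (1.15), Mt2 (0.71), Bach1 (0.70) and Slc7a11 (0.65 CPM per kb) followed, each overlapping with the next, while Hmox1 stood wholly above Nqo1 and the genes after it and Nqo1 wholly above Bach1 and Slc7a11. In KA neurons Srxn1 (53.3 ± 19.4), Mt1 (49.9 ± 18.5) and Gclc (35.1 ± 8.3 CPM per kb) overlapped at the top. In SH glia Mt1 (44.3 ± 24.1) and Gclc (26.2 ± 6.2 CPM per kb) overlapped at the top, and Mt2 was last with 1.80 ± 1.23 CPM per kb, overlapping with Nqo1. Reads of Mt2 that overlap Gm45774 were not counted, while its full exon length was used, so its place in these orders is uncertain. In KA glia Mt1 stood first with 111 ± 52 CPM per kb and Nqo1 last with 1.17 ± 0.83 CPM per kb. Exon lengths are those of all annotated exons joined, and how much of them is transcribed here was not tested.

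For the 3 genes called, the protein-coding genes with the nearest profile over the 12 libraries were taken by the root mean square difference of centred log2 CPM. Nearest to Srxn1 were Odc1 (0.36), the first enzyme of polyamine synthesis, Lce1g (0.47), which did not exceed 1.22 CPM in any library, and Rgs4 (0.48), a regulator of G protein signaling. Nearest to Bach1 were Notch1 (0.27), Mapk6 (0.28) and Hk2 (0.29), and nearest to Hmox1 were Angptl2 (0.35), Akap12 (0.43) and Fblim1 (0.46). The median distance to all protein-coding genes tested was 1.44 for Srxn1, 1.38 for Bach1 and 1.40 for Hmox1. These distances describe the same libraries that gave the calls.

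A wider list of 69 genes of the same systems, all of which were tested, held 2 calls. In neurons none of the 69 was called, where 0.279% of all genes were called higher and 0.0612% lower. In glia Slc39a14 was upregulated and Gstm1 downregulated, 1 gene each way, where 0.442% of all genes were called higher and 0.306% lower. The median logFC of the list was -0.14 in neurons and -0.16 in glia, with 24 and 26 of the 69 above 0, where over all genes 18814 and 22028 of 37598 were above 0. With the replicate block 4 were called lower in neurons (Gstm1, Gsta4, Ephx1, Prdx1), and in glia 4 were called higher (Slc39a14, Sesn2, Cybb, Ncf4) and 11 lower, among them Gstm1, Gsta4, Gstp1, Ephx1, Prdx6, Cat and Mt3. The same fit called 1.11% of all genes lower in neurons, and 3.47% higher and 4.17% lower in glia. Libraries of KA lay wholly above SH for 1 gene of the list in neurons and 5 in glia, and wholly below for 9 and 6, where the shares of all genes were 5.27% and 3.61% above and 4.45% and 3% below.

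Slc39a14 encodes ZIP14, a carrier of zinc, iron and manganese into cells. In glia, Slc39a14 was at 77.7, 118 and 84.8 CPM in SH and at 276, 221 and 739 CPM in KA. In neurons, Slc39a14 was at 63.9, 80.0 and 118 CPM in SH and at 88.8, 99.9 and 144 CPM in KA. The KA glia libraries stood well above all SH glia libraries, KA glia 3 most of all, whereas the neurons overlapped. The logFC was 2.14 ± 0.47 (SE, n = 3 per group) in glia with an FDR of 0.101, and 0.35 ± 0.45 in neurons with an FDR of 1.00 (edgeR). The call was lost without KA glia 3 (0.264) or SH glia 3 (0.457), and without the replicate 3 libraries the logFC fell to 1.34 (FDR 0.554). The difference between the cell types had an FDR of 1.00, and of 0.209 with a block by pool, under which Slc39a14 was the only gene of the list called.

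Gstm1 encodes a glutathione S-transferase, which couples glutathione to electrophiles. In glia, Gstm1 was at 82.3, 38.9 and 59.0 CPM in SH and at 22.8, 12.7 and 19.7 CPM in KA. In neurons, Gstm1 was at 14.5, 12.5 and 19.6 CPM in SH and at 4.61, 5.41 and 8.18 CPM in KA. KA was below SH without overlap in both cell types. The logFC was -1.71 ± 0.37 (SE, n = 3 per group) in glia with an FDR of 0.0978, and -1.35 ± 0.37 in neurons with an FDR of 0.407, and 0.0120 with the replicate block (edgeR). In neurons Gstm1 also passed in the separate fit (0.102), with at least 10 counts in every library (0.0747) and with the DESeq2 Wald test (0.0605). None of the 6 fits without 1 library called Gstm1 in neurons (lowest FDR 0.503, edgeR). Its logFC there was -1.42 without the replicate 3 libraries. Without KA glia 2 (0.581), SH glia 1 (0.378) or SH glia 3 (0.300) the call in glia was lost, and without the replicate 3 libraries the logFC was -1.78 (FDR 0.588). The summed astrocyte markers overlapped between KA and SH glia (1249 to 2335 and 1969 to 2849 CPM). Of the 10, 3 had a logFC above 0, the median was -0.80 and Aldoc was called lower. Their part in the level of Gstm1 was not tested.

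By role, none of the 10 regulators and partners of Nrf2 was called in either cell type. Keap1, the sensor that restrains Nrf2, had a logFC of -0.23 ± 0.41 (SE) in neurons and -0.11 ± 0.41 in glia. Of the 12 genes of glutathione use and recycling, Gstm1 in glia was the only one called, and Gsr, glutathione reductase, had a logFC of 0.20 ± 0.30 in neurons and 0.14 ± 0.30 in glia. None of the 11 genes of the thioredoxin and peroxiredoxin systems was called. Txnrd1, thioredoxin reductase 1, had a logFC of 0.13 ± 0.32 in neurons and 0.51 ± 0.32 in glia, and Prdx1, a peroxiredoxin of the kind that sulfiredoxin repairs, -0.90 ± 0.39 and -0.69 ± 0.39. Prdx1 was at 26.6 to 42.3 CPM in SH neurons and 12.04 to 24.5 CPM in KA neurons, without overlap, and its FDR there was 0.224 with the replicate block and 1.00 without it (edgeR). None of the 6 genes of NADPH supply, 8 of heme and iron, 4 of superoxide and hydrogen peroxide removal, 6 of quinone and carbonyl detoxification and 6 NADPH oxidase subunits was called. Of the 6 metallothionein relatives and zinc genes, Slc39a14 in glia was the only one called. Mt3, the brain metallothionein, had a logFC of -0.07 ± 0.43 in neurons and -0.71 ± 0.44 in glia, where its FDR was 0.161 with the replicate block. Mtf1, the metal-sensing factor, was at 0.40 ± 0.39 and -0.25 ± 0.38, and Slc30a1, the zinc exporter that MTF-1 controls, at -0.29 ± 0.39 and -0.03 ± 0.39.

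**Figure D4:**
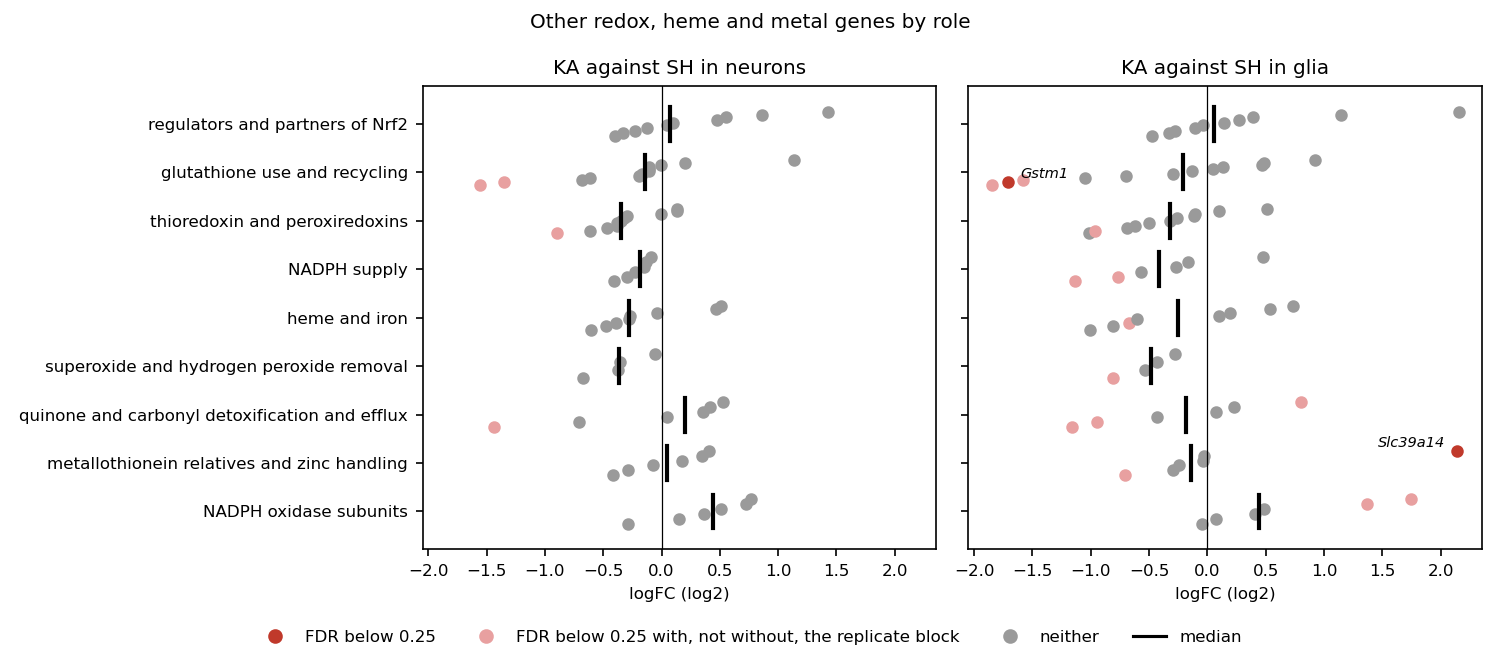
Log2 fold change of KA against SH for the 69 other genes by role, in neurons and in glia, with 1 point a gene, a black bar at the median of each role, dark red for genes past the FDR of 0.25 and light red for those past it with the replicate block but not without it. In neurons no point is dark red, and in glia these are Slc39a14 at 2.14 and Gstm1 at -1.71.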

How the data were processed

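mRNAseq counts of 12 libraries were analysed, and the RRBS samples were not used here. The authors trimmed reads with Trim Galore 0.4.3, aligned them to mm10 with Rsubread and counted unique reads per gene with featureCounts under default settings and GENCODE M16, and the deposited values are raw counts without normalization. Defaults ignore strand and drop reads that overlap more than 1 gene. Reads were 75 bp single or 150 bp paired, and the platform of each library is not given in the sources used here.

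Symbols and positions came from GENCODE M21 (GRCm38), and 105 of 53379 genes without a symbol were left out. Counts were fitted with edgeR 4.0.16 in R 4.3.3 (filterByExpr defaults, TMM, glmQLFit with legacy=TRUE, 4 group means, glmQLFTest), and standard errors were computed as logFC divided by the root of F, without sign. The 95% intervals took a normal quantile of these standard errors, so they are narrower than the edgeR test implies. The nearest profiles used log2 CPM with a prior count of 2. Deviations of same-numbered KA and SH libraries from their group means correlated in all 6 pairs, from 0.264 to 0.551 in neurons and from 0.457 to 0.764 in glia, so a replicate block was fitted as an alternative, and a block by pool for comparisons of the cell types, where NeuN+ and NeuN- nuclei came from the same mice. The pools are not described as paired between treatments. On simulated counts, 82% (neurons) and 77% (glia) of genes changed 4-fold were recovered, and 21.9% and 18.3% of all calls were false. Only genes above a floor of mean CPM were changed there, a floor that Mt2 and Nqo1 do not reach. Simulated libraries did not share deviations by replicate number, so these percentages need not hold for the real libraries. No libraries were duplicates. Alternatives were DESeq2 1.42.0, its size factors, edgeR 4 quasi-likelihood, other filters and thresholds, separate fits and libraries left out. Named are the 10 genes, list genes past the threshold with 7 others given by rule, and the 3 nearest profiles of each called gene; list genes called only with the block or not overlapping were chosen after their values were seen, as were the fits without replicate 3. The members and lists were chosen with earlier results of these data known. No protein sequences were used here. Figures were drawn with matplotlib 3.10.9.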

Additional observations from a re-analysis of the deposited data

How the results depend on the processing

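Directions of the called genes (Srxn1 and Bach1 in neurons, Srxn1 and Hmox1 in glia) held in every setting tried, but their place past the FDR of 0.25 did not. The 2 genes called higher in neurons and the 2 in glia became 4 and 4 with the replicate block, with 1 lower in glia, and 1 and 1 with no filter on low counts, 1 and 0 without the replicate 3 libraries, 0 and 0 without both low-input libraries, and 0 and 0 at an FDR of 0.05. They were 4 and 3 with the DESeq2 Wald test, 3 and 3 with at least 10 counts in every library, and 3 and 2 in the separate fits, the added genes being Mt1 in these and Mt2 in neurons with DESeq2. In the main fit, 105 of all genes were called higher in neurons and 166 in glia. Over all genes these counts were 730 and 1305 with the replicate block, and 98 and 136 with no filter on low counts. Without the replicate 3 libraries they were 24 and 6, without both low-input libraries 73 and 40, and at an FDR of 0.05 17 and 51. The DESeq2 Wald test called 305 and 365, the filter on 10 counts 329 and 443, and the separate fits 409 and 129. Without 1 library at a time the counts of the 10 genes called higher ran from 0 to 2 in both cell types. Over all genes, these fits called 10 to 126 higher in neurons and 66 to 314 in glia.

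Of the wider list, none was called lower in neurons, against 4 with the replicate block, 3 with the DESeq2 Wald test, 2 with at least 10 counts in every library, 2 in the separate fit and 1 with edgeR 4 quasi-likelihood. Over all genes, 23 were called lower in neurons, against 417, 151, 136, 247 and 59 in the same order of settings. In glia, 1 higher and 1 lower became 4 and 11 with the replicate block. They were 2 and 7 with the DESeq2 Wald test and with at least 10 counts in every library. At an FDR of 0.05, without both low-input libraries and without the replicate 3 libraries they were 0 and 0. With edgeR 4 quasi-likelihood 2 were called higher, and in the separate fit 0 lower. Without 1 library they ran from 0 to 1 higher and from 0 to 4 lower. Over all genes, 166 higher and 115 lower in glia became 1305 and 1566 with the block. The DESeq2 Wald test gave 365 and 645, and the filter on 10 counts 443 and 760. At an FDR of 0.05 they were 51 and 11, without both low-input libraries 40 and 1. Without the replicate 3 libraries 6 were called higher and 0 lower. With edgeR 4 quasi-likelihood 287 were called higher, and in the separate fit 17 lower. Between cell types, 1 list gene differed in its KA effect with the block by pool, and the 17 list genes called between SH neurons and glia became 32 with that block, 30 at an FDR of 0.25, 10 without both low-input libraries, 8 without the replicate 3 libraries and 8 to 17 without 1 library, where over all genes 4033 became 8163, 7474, 1856 and 3068. The cause of these shifts was not tested. Over all genes, the settings other than leaving out 1 library gave 17 to 730 genes higher and 0 to 417 lower in neurons and 6 to 1305 higher and 0 to 1566 lower in glia. The block changed no call of the 10 genes in KA against SH other than those of Mt1, Mt2 and Nqo1.

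Values near 0 that were not called turned direction in glia in the separate fit (Nfe2l2 0.077, Gclc 0.0012, Slc30a1 0.10), without both low-input libraries (Nfe2l2 0.063, Slc30a1 0.032) and without the replicate 3 libraries (Gsr -0.059). Without 1 library the logFC in glia ran from -0.33 to 0.20 for Nfe2l2, -0.54 to 0.089 for Gclc, -0.32 to 0.027 for Gclm, -0.66 to 0.10 for Slc7a11, -0.75 to 0.17 for Keap1, -0.65 to 0.11 for Mtf1, -0.27 to 0.24 for Slc30a1 and -0.15 to 0.25 for Gsr. In neurons it ran from -0.35 to 0.031 for Nqo1, -0.33 to 0.18 for Mt3 and -0.034 to 0.29 for Txnrd1, and the difference for Srxn1 from -0.36 to 0.53. The spread between 3 pools a group limits what can be called, and the low counts of Mt2 and Nqo1 limit both further.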
